A study of Mus musculus with 4 samples.

Results

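Zinc finger genes were examined in bulk RNA sequencing of mouse bone after treadmill running. Members were the rows of the deposited gene table whose symbol begins with Zfp, Zbtb, Zscan, Zkscan, Zmym, Zfhx, Zeb, Zhx, Znf, Klf, Ikzf or Zmiz, or is Zfx, with a number after the family name where the family is numbered, and 30 of the 1175 listed genes met this rule. Exercise mice were wild type (C57BL/6J), had 5 weeks of medium-intensity treadmill running that began at 8 weeks of age, and bone was taken at 13 weeks. Sedentary mice were wild type, 13 weeks old and did not run. Marrow was flushed from the bones of both groups before RNA was extracted, and each group had 2 libraries. Whether libraries of 1 group stem from different animals is not stated, and p-values therefore reflect only how far these samples differ, which may be technical.

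Most of these genes encode C2H2 proteins, in which a pair of cysteines and a pair of histidines hold a zinc ion and each folded finger reads a few bases of DNA. KRAB-type proteins join an array of such fingers to a KRAB box, which recruits the corepressor TRIM28 and is known for silencing transposable elements and keeping imprints. BTB proteins (Zbtb genes) carry a domain that pairs proteins and recruits corepressors, and several direct blood cell lineages. SCAN proteins (Zscan and Zkscan genes) carry a leucine-rich domain through which they pair, and Ikaros proteins (Ikzf genes) are lymphocyte factors. The symbol alone does not make a transcription factor. Zfp36l2 encodes an RNA-binding protein that hastens mRNA decay, Zfp598 a ubiquitin ligase of collided ribosomes, Znfx1 a helicase that senses RNA, and Zmiz2 a coregulator of the SUMO ligase type, and these 4 are given as members with another role.

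The families were checked in the translated coding sequence of the longest protein-coding transcript of each gene (GENCODE release M21, mm10). All 30 members had one. A KRAB box pattern was found in 6 members, Zfp445, Zfp84, Zfp169, Zfp808, Zfp868 and Zfp382, and these are called KRAB-type. The pattern is strict and can miss diverged boxes, so members without a match were not shown to lack a KRAB box. A SCAN pattern was found in Zkscan3 and Zfp263, called SCAN-type here, and also in Zfp445. The KRAB pattern had no match in Zkscan3 or Zfp263, and matched only 2 of the 11 annotated Zkscan genes. Whether Zkscan3 and Zfp263 carry a KRAB box is therefore not settled here. The table held 5 BTB genes, 1 Ikaros gene (Ikzf3), 12 other C2H2 genes and the 4 members with another role. Zfp91, a ubiquitin ligase like Zfp598, had 5 C2H2 matches and is counted with the other C2H2 genes. The annotation holds 505 protein-coding genes whose symbols meet the rule, of which 30 were listed. By pattern 223 of the 505 were KRAB-type, and 6 of these were listed, against 5 of the 41 Zbtb genes. Since the rule of listing is not given, these counts do not compare how the families responded. No Zscan, Zmym, Zfhx, Zeb, Zhx, Zfx or Klf gene was among the genes analysed here.

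The coding DNA of the KRAB box core is shown for the 6 KRAB-type members, because a match to its pattern defines this class here. It is given 5′ to 3′ on the coding strand (GENCODE M21 on mm10), with the codons of the invariant glutamate and tryptophan in capitals.
Zfp445 (chr9:122856766-122856807, minus strand): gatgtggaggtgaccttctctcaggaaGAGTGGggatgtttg
Zfp84 (chr7:29775356-29775397, plus strand): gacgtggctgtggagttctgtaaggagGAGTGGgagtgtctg
Zfp169 (chr13:48498847-48498888, minus strand): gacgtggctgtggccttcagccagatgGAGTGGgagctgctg
Zfp808 (chr13:62169460-62169501, plus strand): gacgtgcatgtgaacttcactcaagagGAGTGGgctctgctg
Zfp868 (chr8:69613815-69613856, minus strand): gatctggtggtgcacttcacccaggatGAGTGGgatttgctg
Zfp382 (chr7:30130719-30130760, plus strand): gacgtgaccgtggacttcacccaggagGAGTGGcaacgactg
Each stretch lies within 1 coding exon. The 6 KRAB-type proteins held 9 to 22 C2H2 fingers, the 5 BTB proteins 2 or 3, and the 12 other C2H2 proteins between 1 (Zfp609) and 36 (Zfp142). Zfp36l2 had no C2H2 match and 2 matches to the CCCH finger pattern of RNA-binding proteins.

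For every listed gene the mean Exercise count exceeded the mean Sedentary count, and how genes were chosen for the table is not given. Counts summed over the table ran from 1160883 to 2680636 in Exercise and from 516963 to 594856 in Sedentary libraries, and true depth is unknown. Values are therefore given as shares, meaning counts per 1000000 counts of the table, and a lower share can go with a higher count. All 30 members had more counts in both Exercise libraries than in either Sedentary library, which was so for 99.7% of the listed genes. Their ratio of mean counts had a median of 4.49, against 3.85 over all listed genes. In this bulk bone RNA, fewer cells of a type and less RNA per cell cannot be told apart. Of 14 osteoblast and bone matrix markers only the osteocyte gene Sost was listed, and 0 of 8 T lymphocyte markers were. B lymphocyte markers were listed at 4 of 12, with summed shares of 42592 and 11405 in Exercise and 22074 and 22288 in Sedentary libraries. Ighm made up 41148 and 9160 of the Exercise sums, and Pax5, Cd22 and Rag1 each had the higher share in Exercise replicate 2. Chondrocyte, muscle and endothelial markers were listed at 0 of 7, 0 of 8 and 0 of 6. Of 8 megakaryocyte markers Gp1ba, a platelet receptor gene (log2 share ratio 0.93 ± 0.17, SE), and Vwf (-0.23 ± 0.18, SE) were listed, and of 11 neutrophil markers Csf3r (0.25 ± 0.14, SE) and Padi4 (0.19 ± 0.22, SE). Of 12 erythroid markers 3 were listed, the ankyrin gene Ank1 (0.43 ± 0.15, SE), Epb42 (-0.24 ± 0.18, SE) and Sptb (-0.28 ± 0.14, SE). Gp1ba and Ank1 met the thresholds used for the members. The Exercise libraries stood apart from each other in Ighm and in many zinc finger genes, and the calls without each of them are given with the results.

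In shares, 22 of the 30 zinc finger genes were higher and 8 lower in Exercise, which is 73.3% higher against 64.1% over all listed genes. Their median log2 share ratio (Exercise over Sedentary) was 0.30, against 0.14 over the table. The member median was 0.53 without Exercise replicate 1, against 0.20 over the table, and 0.06 without Exercise replicate 2, against 0.06 over the table. With DESeq2 size factors it was 0.18, against 0.04 over the table. An unadjusted p under 0.05 with an absolute log2 ratio over 0.25, the thresholds of the study's methods, was met by 4 members, all higher and 0 lower (edgeR quasi-likelihood test). These 13.3% were close to the 11.4% of all listed genes that met it, 11.3% higher and 0.0851% lower. No listed gene had a log2 share ratio under -0.38 or a ratio of mean counts under 2.48. The table thus left little room for lower calls, and the direction of the 4 is not a result about the members. The 4 were Zfp609, Zfp142, Zfp335 and Zfp91, all from the other C2H2 group. No member had an adjusted p under 0.05 in edgeR, against 0.34% of all listed genes. The DESeq2 Wald test also gave 0 members at an adjusted p under 0.05, and 36 of the 1175 listed genes. At the unadjusted thresholds the DESeq2 Wald test found 2 members, Zbtb37 and Zfp91, and limma-voom 0, against 13.3% and 5.79% of the table.

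Leaving out either Exercise library changed the call of many members, as it did for the table. Without Exercise replicate 1, 18 members met the thresholds, beside 55.3% of all listed genes. The 15 higher were Zfp142, Zfp609, Zfp335, Zfp91, Zbtb37, Zfp445, Zfp646, Ikzf3, Zfp84, Zkscan3, Zfp808, Zfp868, Zfp407, Zfp526 and Zbtb33. The 3 lower were Zmiz2 (log2 share ratio -0.52), Zbtb7b (-0.70) and Zfp592 (-0.25). Without Exercise replicate 2, 7 members met them, beside 30.7% of all listed genes. The 6 higher were Zfp142, Zfp609, Zfp335, Zfp91, Zfp36l2 (log2 share ratio 0.41) and Zfp276 (0.33), and the 1 lower was Zbtb33 (-0.53). Zbtb33 thus met the thresholds in opposite directions, with 0.62 without Exercise replicate 1.

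**Figure D1:**
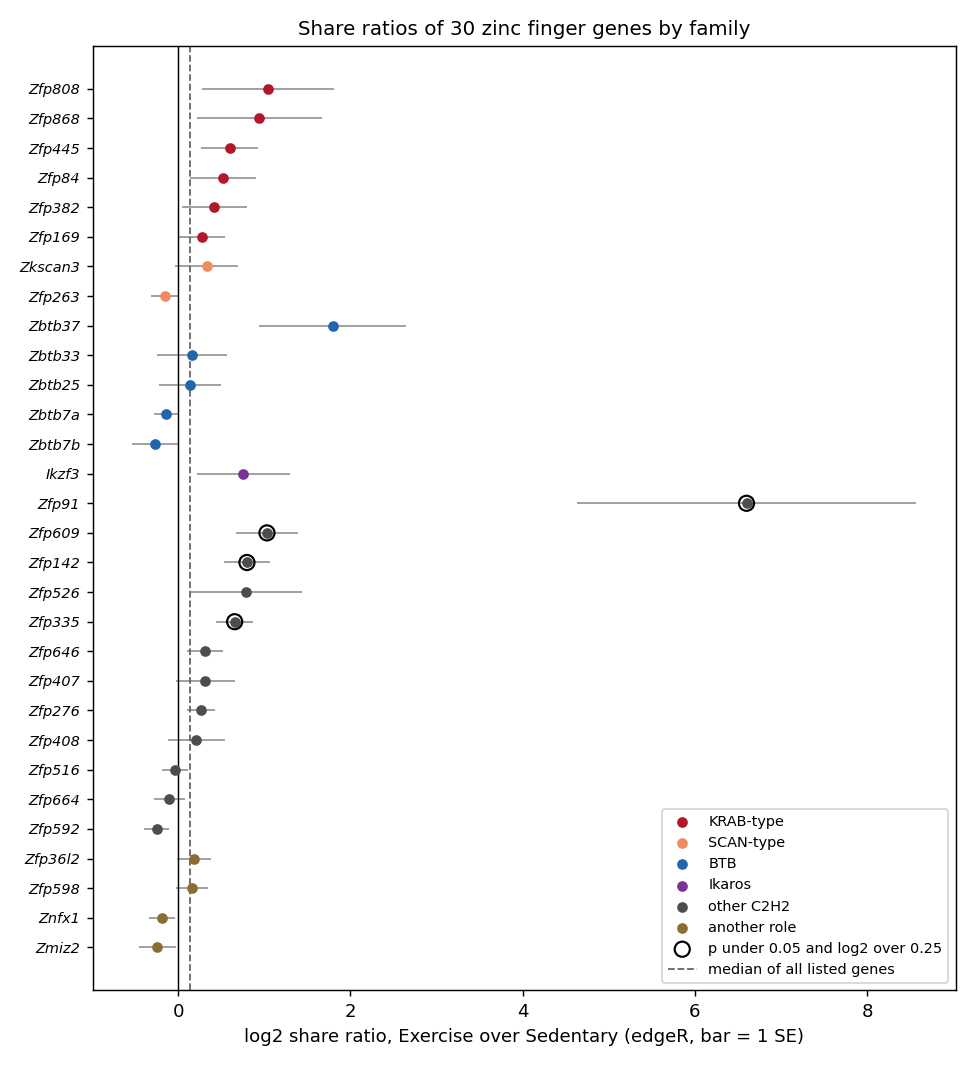
Log2 share ratio of each of the 30 zinc finger genes, Exercise over Sedentary (horizontal axis; n = 2 libraries per group), grouped by family, with bars of 1 SE from edgeR, a ring around the 4 genes at the unadjusted thresholds and a dashed line at the median of all listed genes, 0.14. The 6 KRAB-type genes lie between 0.28 and 1.05, and the BTB genes lie on both sides of 0, from -0.27 for Zbtb7b to 1.79 for Zbtb37.

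Zfp609, Zfp142 and Zfp335 were higher in both Exercise libraries, with Sedentary libraries that lay close together. Zfp609, whose human counterpart is known for a circular RNA in muscle precursor cells, had shares of 141 and 217 in Exercise, against 94.1 and 81.2 in Sedentary bone. The groups did not overlap, and the log2 share ratio was 1.03 ± 0.36 (SE, edgeR adjusted p = 0.3645). Zfp609 has whole counts and no annotated exon of another gene over its exons (chromosome 9, 65692391 to 65827564).

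Zfp142, which encodes a protein of many fingers, had shares of 207 and 263 in Exercise, against 133 and 138 in Sedentary bone. Its lowest Exercise share was above both Sedentary shares. The log2 share ratio was 0.80 ± 0.26 (SE, edgeR adjusted p = 0.363). Its counts are fractional, and 2101 of its exon bases lie over Plcd4 on the opposite strand (chromosome 1, 74565127 to 74588246).

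Zfp335, a component of a histone H3K4 methyltransferase complex that T lymphocytes need to mature, had shares of 288 and 380 in Exercise, against 211 and 212 in Sedentary bone. Here too the groups did not overlap, and the log2 share ratio was 0.66 ± 0.21 (SE, edgeR adjusted p = 0.363). Its counts are fractional, and its exons share 1341 bases with Pcif1 and Zfp335os on the opposite strand (chromosome 2, 164891882 to 164911757). All 3 genes met the thresholds without Exercise replicate 1 and without Exercise replicate 2, and none did without Sedentary replicate 1 or without Sedentary replicate 2, when Zfp91 was the 1 member that passed. Their log2 share ratios then lay between 0.65 and 1.14.

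The first finger of each of these 3 proteins is shown in coding DNA, since fingers are what the 3 share, with the codons of the zinc-holding cysteines and histidines in capitals (5′ to 3′ on the coding strand, GENCODE M21 on mm10).
Zfp609 (chr9:65704120-65704191, minus strand): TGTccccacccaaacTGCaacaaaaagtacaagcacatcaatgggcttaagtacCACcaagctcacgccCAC
Zfp142 (chr1:74579827-74579895, minus strand): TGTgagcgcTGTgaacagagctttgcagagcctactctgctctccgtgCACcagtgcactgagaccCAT
Zfp335 (chr2:164907663-164907728, minus strand): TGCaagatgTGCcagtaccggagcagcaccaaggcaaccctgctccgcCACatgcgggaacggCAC
The finger of Zfp609 is the only match in its protein of 1413 residues, while Zfp335 held 13 in 1337 residues.

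Zfp91, a zinc finger ubiquitin ligase that acts in noncanonical NF-kappaB signalling, had the largest ratio of the 30, and most of its counts came from 1 library. Its counts were 23.35 and 1375.75 in Exercise, against 3.11 and 0 in Sedentary libraries. The ratio of pooled shares was 130 (exact Clopper-Pearson 95% interval 46.1 to 655), and for Exercise replicate 1 alone it was 7.19 (2.22 to 38.2). These intervals cover counting error only. The fitted log2 share ratio was 6.60 ± 1.97 (SE, edgeR adjusted p = 0.3598), and without Exercise replicate 2 it was 2.81, still at the thresholds. With so few Sedentary counts the fitted value is no bound. In limma-voom it did not pass. Zfp91 lies over Cntf on the same strand, sharing 847 exon bases (chromosome 19, 12763660 to 12796126), and 7.46% of the 100-base words of its transcripts also occur in Cntf transcripts. Whether reads were divided between them was not tested.

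KRAB-type genes all had higher shares in Exercise, 6 of 6, with a median log2 share ratio of 0.56, against 3 of 5 and 0.14 for BTB genes. With the 2 SCAN-type genes, which may carry a KRAB box that the pattern missed, 7 of 8 were higher, with a median of 0.47. None of the 6 KRAB-type and 5 BTB genes met the unadjusted thresholds in edgeR with all 4 libraries. Scaled by DESeq2 size factors, the medians of the KRAB-type and BTB genes were 0.44 and 0.04. The difference between the families was not tested, since genes of a library are not replicates. KRAB-type genes had low counts, with a median mean count of 167, against 334 for BTB genes and 566 over the table. Of the 153 listed genes with a mean of 100 to 250 counts, 148 had a higher share, with a median log2 share ratio of 0.42, and all 11 members in that range did, with a median of 0.52. Among the 852 listed genes above 250 counts, 435 had a higher share (median 0.01), as did 11 of 19 members (median 0.16).

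Zfp445, which together with Zfp57 keeps imprints in mouse embryos, was the most abundant KRAB-type gene. Its shares were 563 and 1125 in Exercise, against 550 and 569 in Sedentary bone. Exercise replicate 1 lay between the Sedentary libraries and replicate 2 far above them, and the log2 share ratio was 0.60 ± 0.33 (SE). Without Exercise replicate 2 it was 0.01, and without Exercise replicate 1 it was 1.01.

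Zfp808 was also high in Exercise replicate 2 alone, with shares of 37.0 and 154 in Exercise, against 52.1 and 40.0 in Sedentary bone. Its log2 share ratio of 1.05 ± 0.77 (SE) turned to -0.33 without Exercise replicate 2. Of the 100-base words of its transcripts, 9.46% occur in other genes, among them Zfp934, so its fractional counts are uncertain.

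Zfp868 had shares of 64.4 and 149 in Exercise, against 26.7 and 84.7 in Sedentary bone. Its groups overlapped and its Sedentary libraries differed most of all members with counts in both. The log2 share ratio was 0.94 ± 0.73 (SE), and 1.04% of its 100-base words occur in Zfp869. The other KRAB-type genes varied less. Zfp84 had shares of 113 and 189 in Exercise, against 103 and 108 in Sedentary bone. Zfp382 had shares of 111 and 131 in Exercise, against 101 and 79.3 in Sedentary bone. Zfp169 had shares of 168 and 179 in Exercise, against 151 and 135 in Sedentary bone. In these 3 the groups did not overlap, with log2 share ratios of 0.52 ± 0.38, 0.42 ± 0.37 and 0.28 ± 0.27 (SE).

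The family picture of KRAB-type genes depended on Exercise replicate 2. The median log2 share ratio of the 6 was 0.93 without Exercise replicate 1, when 4 of the 6 met the thresholds beside 55.3% of the table. It was 0.16 without Exercise replicate 2, when 5 of the 6 were higher and 0 met them beside 30.7% of the table. The median of the 5 BTB genes was 0.06 and 0.07 in those fits. Summed over the 6 genes, the KRAB-type share was 1056 and 1928 in Exercise, against 983 and 1016 in Sedentary bone. For the 5 BTB genes the sum was 2492 and 2243 in Exercise, against 2567 and 2498 in Sedentary bone.

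**Figure D2:**
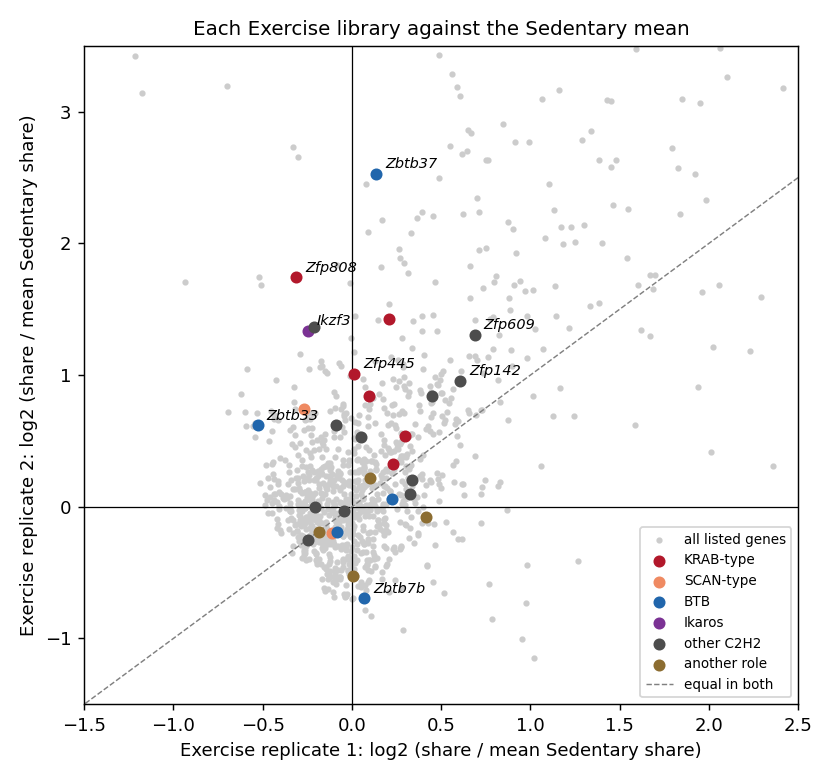
Log2 ratio of a gene's share in Exercise replicate 1 (horizontal axis) and in Exercise replicate 2 (vertical axis) to its mean Sedentary share, for all listed genes (grey) and for zinc finger genes by family, with a dashed line of equal ratios. Of the 6 KRAB-type genes all lie above the dashed line, and Zfp808 and Ikzf3 lie above 0 on the vertical axis and below 0 on the horizontal one. Zfp91 and the other genes among 68 beyond the axes, and 32 genes with 0 Sedentary counts, are not drawn.

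Between the Exercise libraries, replicate 2 had the higher share in 20 of the 30 members, against 62.6% of all listed genes. The ratio of replicate 2 to replicate 1 had a median of 1.23 over the members and 1.12 over the table. The share of replicate 1 was over the Sedentary mean in 18 members (56.3% of the table) and that of replicate 2 in 21 (65.7% of the table). The ratio of replicate 2 to replicate 1 was over 1 in all 6 KRAB-type genes (median 1.84) and in 2 of the 5 BTB genes (median 0.93). It was also over 1 in 9 of the 11 members with a mean of 100 to 250 counts (median 1.64). Of all listed genes in that range, 72.5% had a ratio over 1 (median 1.18). A ratio over 1 is thus not particular to KRAB-type genes. In 6 members, 20% against 21.9% of the table, replicate 1 lay under and replicate 2 over the Sedentary mean. These were Zfp808, Zkscan3, Zbtb33, Ikzf3, Zfp407 and Zfp526.

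Of the SCAN-type genes, Zkscan3, a repressor of autophagy and lysosome genes, had shares of 287 and 577 in Exercise, against 296 and 395 in Sedentary bone. The Sedentary shares lay between the Exercise shares, and the log2 share ratio of 0.33 ± 0.36 (SE) was -0.26 without Exercise replicate 2. Zfp263 had shares of 427 and 402 in Exercise, against 439 and 484 in Sedentary bone. Both Exercise shares were below both Sedentary shares, with a log2 share ratio of -0.15 ± 0.16 (SE).

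BTB genes lay on both sides of no difference, and none met the thresholds in edgeR with all 4 libraries. Zbtb7b, which encodes ThPOK, the factor that commits T lymphocytes to the CD4 lineage, had shares of 1282 and 754 in Exercise, against 1239 and 1203 in Sedentary bone. Exercise replicate 2 alone was low, and the log2 share ratio of -0.27 ± 0.27 (SE) was 0.07 without it. Zbtb7a, which encodes LRF, a repressor of fetal globin genes, had shares of 900 and 835 in Exercise, against 941 and 967 in Sedentary bone. Both Exercise shares were below both Sedentary shares, with a log2 share ratio of -0.14 ± 0.14 (SE). Beside this, of the erythroid markers 3 of 12 were listed, with summed shares of 9842 and 10767 in Exercise and 10949 and 11109 in Sedentary libraries, Ank1 being higher and Epb42 and Sptb lower, and their part in the value of Zbtb7a was not tested.

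Zbtb7a and Zbtb7b are close relatives, and their first fingers are shown because they are the BTB genes with the highest levels (cysteine and histidine codons in capitals, 5′ to 3′ on the coding strand).
Zbtb7a (chr10:81145105-81145167, plus strand): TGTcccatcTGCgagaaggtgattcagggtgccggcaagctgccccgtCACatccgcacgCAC
Zbtb7b (chr3:89380394-89380456, minus strand): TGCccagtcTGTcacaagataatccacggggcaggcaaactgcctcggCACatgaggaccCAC
The stretches have 44 of 63 bases in common, and neither gene shared a 100-base word with another gene.

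Zbtb37 had the largest ratio of the BTB genes, again from 1 library. Its shares were 40.2 and 211 in Exercise, against 43.4 and 29.7 in Sedentary bone. Exercise replicate 1 lay within the Sedentary range, and the log2 share ratio was 1.79 ± 0.85 (SE) with all libraries. Without Exercise replicate 2 it was 0.14. In the DESeq2 Wald test Zbtb37 met the thresholds (log2 1.65, unadjusted p = 0.03975). Of its 18814 exon bases, 2942 lie over Serpinc1 on the opposite strand, and its counts are fractional. Zbtb33, which encodes Kaiso, a protein that binds methylated DNA, had shares of 153 and 339 in Exercise, against 239 and 203 in Sedentary bone. The Sedentary shares lay between the Exercise shares, and the log2 share ratio of 0.16 ± 0.41 (SE) turned to -0.53 without Exercise replicate 2 and was 0.62 without Exercise replicate 1, each at the thresholds. Zbtb25 had shares of 116 and 104 in Exercise, against 104 and 94.8 in Sedentary bone, with overlapping groups and a log2 share ratio of 0.14 ± 0.36 (SE).

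Ikzf3, which encodes Aiolos, an Ikaros family factor of B lymphocytes, had shares of 115 and 343 in Exercise, against 146 and 126 in Sedentary bone. Only Exercise replicate 2 was high, and the log2 share ratio of 0.76 ± 0.54 (SE) was -0.25 without it. Among B lymphocyte markers, the recombinase gene Rag1 had shares of 334 and 889 in Exercise, against 578 and 503 in Sedentary bone. Pax5, which fixes B lymphocyte identity, had shares of 620 and 789 in Exercise, against 770 and 809 in Sedentary bone. Cd22 had shares of 489 and 567 in Exercise, against 531 and 584 in Sedentary bone, and the immunoglobulin gene Ighm had shares of 41148 and 9160 in Exercise, against 20194 and 20392 in Sedentary bone. Rag1 was thus high in the same library as Ikzf3 and Ighm low in it. The part of B lymphocytes in the value of Ikzf3 was not tested.

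The remaining 8 C2H2 genes did not meet the thresholds in edgeR with all 4 libraries. Zfp526 had shares of 49.1 and 147 in Exercise, against 65.6 and 48.4 in Sedentary bone, and its log2 share ratio of 0.79 ± 0.65 (SE) was -0.22 without Exercise replicate 2. Zfp407 had shares of 143 and 235 in Exercise, against 168 and 137 in Sedentary bone (log2 0.31 ± 0.34, SE). Both were high in Exercise replicate 2 alone. Zfp646 and Zfp276 had both Exercise shares above both Sedentary shares, with log2 share ratios of 0.31 ± 0.21 and 0.27 ± 0.16 (SE). Zfp592 had shares of 637 and 635 in Exercise, against 743 and 770 in Sedentary bone. It was the member with the closest Exercise libraries, both below both Sedentary libraries, with a log2 share ratio of -0.25 ± 0.14 (SE). Zfp516, a factor of brown fat, was nearly level between the groups, with shares of 413 and 417 in Exercise, against 430 and 424 in Sedentary bone, both slightly below. Zfp408 and Zfp664 had overlapping groups, with log2 share ratios of 0.21 ± 0.33 and -0.10 ± 0.18 (SE).

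The 4 members with another role had a median log2 share ratio of -0.01 and none met the thresholds with all 4 libraries. Zfp91, a ubiquitin ligase that did meet them, is not among these 4. Zfp36l2 had the highest level of the 30, with shares of 2762 and 1966 in Exercise, against 2110 and 2033 in Sedentary bone. Exercise replicate 1 was high and replicate 2 was below both Sedentary shares, with a log2 share ratio of 0.19 ± 0.20 (SE) that was -0.08 without Exercise replicate 1 and 0.41, at the thresholds, without Exercise replicate 2. Zmiz2 had shares of 929 and 644 in Exercise, against 958 and 894 in Sedentary bone (log2 -0.24 ± 0.21, SE). Znfx1 had shares of 658 and 654 in Exercise, against 698 and 799 in Sedentary bone, below in both Exercise libraries (log2 -0.19 ± 0.15, SE). Zfp598 had shares of 388 and 421 in Exercise, against 403 and 319 in Sedentary bone, with overlapping groups (log2 0.16 ± 0.19, SE).

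**Figure D3:**
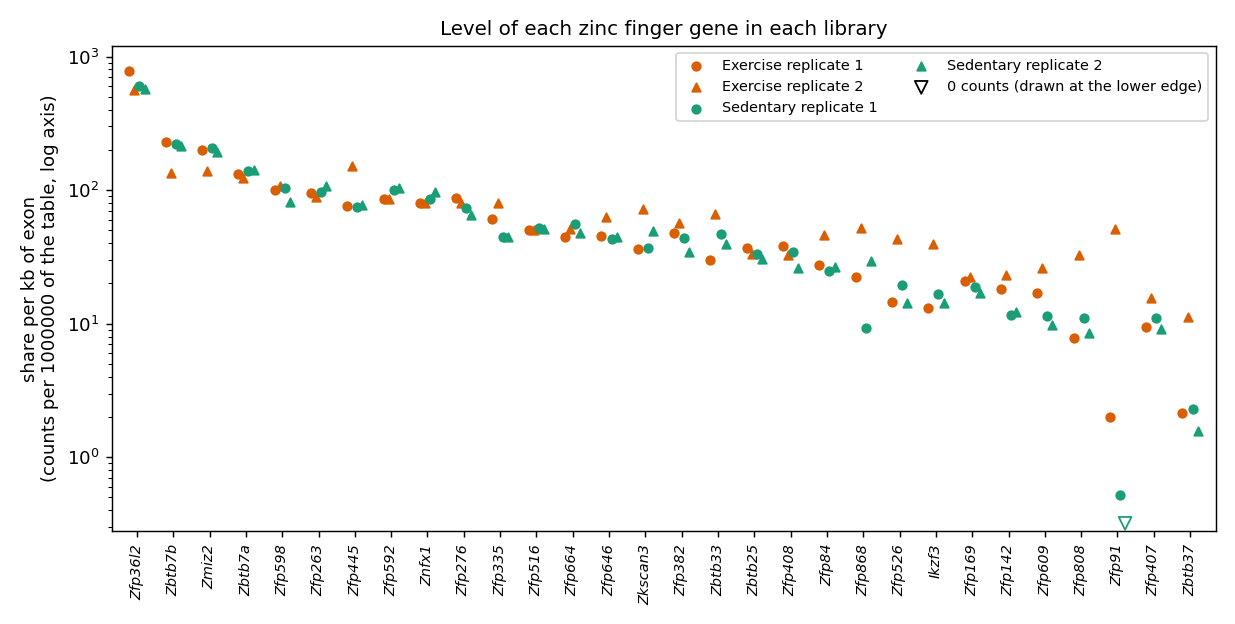
Share per kilobase of exon in each of the 4 libraries (log vertical axis, counts per 1000000 of the table) for the 30 zinc finger genes, ordered by their mean, with an open triangle where the count was 0. Zfp36l2 stands above the others in all 4 libraries, and the spread between libraries is widest at the low end, where Zfp91 and Zbtb37 stand.

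Levels were compared per kilobase of exon. Zfp36l2 had 782 and 557 in Exercise and 598 and 576 in Sedentary libraries. Zbtb7b followed with 229 and 135 in Exercise and 222 and 215 in Sedentary libraries, and Zmiz2 came next with 199 and 138 in Exercise and 206 and 192 in Sedentary libraries. The values of Zbtb7b and Zmiz2 overlapped between libraries, so their order was not resolved. By their mean over the libraries Zbtb7a, Zfp598 and Zfp263 came next. The order of Zfp598, Zfp263, Zfp445 and Zfp592 was not resolved, since it differed between libraries. In Exercise replicate 2 alone Zfp445 had 152, above Zbtb7a (123), Zbtb7b and Zmiz2, so its order against these was not resolved either. The lowest mean was that of Zbtb37, with 2.14 and 11.2 in Exercise and 2.31 and 1.58 in Sedentary libraries. Zfp91 was lower than Zbtb37 in 3 of the 4 libraries, with 2.0 and 51.1 in Exercise and 0.52 and 0 in Sedentary libraries. Of the 15 members with the lower levels, all 15 had a higher share in Exercise (median log2 0.76), against 7 of the 15 with the higher levels (median -0.04). The table as a whole had a like split by count. A higher share was found in 148 of 153 listed genes with a mean of 100 to 250 counts, against 435 of 852 above 250. The split is thus not particular to zinc finger genes, and the levels include the Exercise libraries.

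Share groups that did not overlap were found in 14 of the 30 members, against 52.1% of all listed genes. The Exercise shares were the higher in 9 (36.0% of the table) and the lower in 5 (16.1% of the table). Counts with decimals, here called fractional, were present in 12 members, 40% against 49.3% of the table. Of these 12, 11 share exon positions or 100-base words with another annotated gene (Zfp382 did not), against 4 of the 18 with whole counts. All 12 had a higher share in Exercise, with a median log2 share ratio of 0.54, against 10 of 18 with whole counts (median 0.15). Among all listed genes, 413 of the 579 with fractional counts had a higher share (median 0.26), against 340 of 596 with whole counts (median 0.05). The part of overlap with other genes in these values was not tested.

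The partner genes of these factors were mostly not among the listed genes, and none of those named here met the thresholds. Of 15 genes of the KRAB corepressor machinery 3 were listed. The remodeller gene Chd3 had a log2 share ratio of 0.21 ± 0.18, the TRIM28 and SETDB1 partner gene Atf7ip of -0.15 ± 0.14 and the DNA methyltransferase gene Dnmt1 of -0.22 ± 0.15 (SE). Among BTB and other corepressors, the log2 share ratio was -0.25 ± 0.20 for Gps2, -0.21 ± 0.15 for Tbl1x and -0.07 ± 0.16 for Rcor1 (SE). Ncor1 had shares of 1240 and 2120 in Exercise, against 1750 and 1636 in Sedentary bone, so that the Exercise libraries lay on either side. Of 14 NuRD genes only Chd3 was listed. Of 73 other zinc finger factors 7 were listed, 3 higher and 4 lower, with a median log2 share ratio of -0.13. Zfpm1, a partner of GATA1 in red cells and platelets, had shares of 1847 and 1235 in Exercise, against 1210 and 1017 in Sedentary bone, without overlap (log2 0.47 ± 0.23, SE). Sp1, a general activator of GC-rich promoters, had shares of 1312 and 1429 in Exercise, against 1674 and 1575 in Sedentary bone, also without overlap (log2 -0.24 ± 0.14, SE).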

How the data were processed

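Bone RNA libraries were made by a Smart-seq2 method with molecular barcodes (UMIs), and the submitters' notes name STAR, HTSeq and mm10; the sources used here give no versions, annotation or strand setting. The authors deposited estimated counts per gene, deduplicated by UMI per the methods, for 1175 listed genes, with up to 2 decimals. The step that made fractions and the rule of listing are not given. Counts were rounded and scaled by column totals. All 1175 genes were fitted with edgeR 4.0.16 in R 4.3.3 (quasi-likelihood, two-sided, no covariates, Benjamini-Hochberg adjustment). Dividing the size of the log2 ratio by the root of its F statistic gave the SE. Common dispersion corresponded to a biological coefficient of variation of 0.294. The smallest p of an exact test of 2 against 2 libraries is 0.333, so none was run. Alternatives were DESeq2 1.42.0, TMM, limma-voom (limma 3.58.1), filters at a mean of 20 and 100 counts, a replicate block, omission of each library in turn, and whole counts only. The fit was tested on simulated data. Families were read from GENCODE M21 translations, since the RefSeq proteins planned for this were not used here. KRAB boxes were sought in the first 250 residues. Named members were those at the thresholds, the 6 highest and 6 lowest ratios at a mean of 20 counts or more, the 6 highest levels and every member outside Zfp; the rest are given for completeness. A result of a partner list is not reported here. Members and lists were chosen with earlier results of these data known. Python 3.11.15, pandas 2.3.3, SciPy 1.17.1 and matplotlib 3.10.9 were used.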

Additional observations from a re-analysis of the deposited data

How the results depend on the processing

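Members at the unadjusted thresholds, 4 with all libraries, were 2 with the DESeq2 Wald test, 0 with limma-voom and 1 among whole-count genes (Zfp609), and 1 to 18 with each library left out (1 without Sedentary replicate 1 or 2, beside 4.0% and 3.74% of the table, 7 without Exercise replicate 2, beside 30.7%, and 18 without Exercise replicate 1, beside 55.3%). In those fits 1 group has a lone sample, whose spread is taken to be that of the complete pair. Members with an adjusted p under 0.05 ranged from 0 to 18 (18 beside 651 of 1175 listed genes without Exercise replicate 1, and 3 beside 318 without Exercise replicate 2). Their median log2 share ratio ranged from 0.0615 to 0.53. Members with a higher share, 22 of 30 (73.3%), were 10 of 18 (55.6%) among whole-count genes. The 12 members left out there, those with fractional counts, all had a higher share. Members whose groups did not overlap, 14 of 30, were 8 of 18. Replicate numbers showed no pairing (deviations from group means correlated at -0.08 over 1005 genes), and the replicate block gave 4 members at the thresholds and 0 at an adjusted p under 0.05. DESeq2 size factors moved the share of listed genes with a higher share to 52.8% and TMM to 53.4%, against 64.1% with column totals, and the median over all genes was 0.04 with either, against 0.14, while 22 members stayed higher in each and the same 4 met the thresholds. Directions turned for 10 members when a library was left out, and the log2 share ratio then ranged from -0.25 to 1.33 for Ikzf3, from -0.53 to 0.62 for Zbtb33, from -0.70 to 0.0693 for Zbtb7b, from -0.0764 to 0.41 for Zfp36l2, from -0.091 to 0.62 for Zfp407, from -0.22 to 1.35 for Zfp526, from -0.21 to 0.0155 for Zfp664, from -0.33 to 1.72 for Zfp808, from -0.26 to 0.75 for Zkscan3 and from -0.52 to 0.0025 for Zmiz2. The cause was not tested. Since true depth is unknown, each direction holds for shares of the table only.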
